A study of Xenopus tropicalis with 6 samples.

Results

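The 726 exon bins of RNA-binding splicing regulators were taken from the 267746 exon bins counted in stage 46 *Xenopus tropicalis* brains. An exon bin is an exon, or a piece of one where transcripts differ in their borders. Bins were chosen by gene symbol alone, with no measured value: SR proteins (*srsf* genes), transformer 2 (*tra2*), hnRNP, PTB, Rbfox, CELF, ELAV, muscleblind, Nova, STAR (*khdrbs*), cold-inducible (*cirbp*) and poly(C) binding (*pcbp*) genes. The symbols matched 57 genes, of which 53 have bins of their own, between 3 and 24 per gene with a median of 14. The other 4 genes (*srsf10*, *khdrbs1*, *ptbp3* and *mbnl3*) overlap a neighbor and have bins only in models merged with it, so their bins are not members. Counts were found in 712 of the 726 bins, and 631 had a mean of at least 10 counts per library.

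The comparison was between injected and uninjected tadpoles. The *dyrk1a* CRISPR group (labelled as a knockdown) had Cas9 reagents against *dyrk1a* injected into each of the cells of 2-cell embryos, and the control group was uninjected. There were 3 libraries per group, each made from 3 pooled brains, so that p-values measure the spread between pools. By the methods of the study the pooled CRISPR brains were those with the most mutagenesis. Tadpoles edited by injection are as a rule mosaics of edited and unedited cells.

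SR and transformer 2 proteins bind exonic enhancers and mostly favor the inclusion of an exon, whereas hnRNP and PTB proteins often act against it. Rbfox, Nova, ELAV, CELF, muscleblind and STAR proteins act depending on where they bind around an exon, and several of them mark neurons. In mammals, many SR and hnRNP genes hold exons or introns whose inclusion or retention sends their own transcript to decay, and DYRK1A is a kinase that phosphorylates SR proteins among other targets. The comparison of bin shares asks whether the transcripts of these regulators are themselves put together differently in *dyrk1a* CRISPR brains. A bin share is what part of a gene's summed bin counts in a library, in percent, fell in that bin. Because RNA was taken from whole brains, a different mix of cell types and a different transcript form within a cell cannot be told apart. How evenly reads covered the transcripts in each library was not measured.

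Gene counts summed to between 9603583 and 35071943 per library, and control replicate 3 was the shallowest. The members took 2.82% to 3.09% of all bin counts of a library. Levels of genes are given in cpm, which are counts scaled to the library total multiplied by its TMM normalization factor. The count of *dyrk1a* itself did not separate the groups, with 16.8, 13.2 and 15.04 cpm in CRISPR replicates 1, 2 and 3 and 21.4, 10.8 and 14.8 cpm in control replicates 1, 2 and 3. A small insertion or deletion need not change a count, so this value does not measure editing. Control replicate 1 stood apart from the other controls in its member bins, as it did over all gene models. Taking the distance of 2 libraries as the sum of the bin shares that are gained in one relative to the other, with the median over the 50 members of at least 1000 counts, control replicates 2 and 3 were 2.19% apart and control replicates 1 and 2 were 4.79% apart. CRISPR replicate 3 was nearer to control replicate 1 (3.09%) than to CRISPR replicate 1 (3.58%) or CRISPR replicate 2 (3.85%). Over all gene models of at least 1000 counts, control replicates 2 and 3 were 3.535% apart and control replicates 1 and 2 were 4.76% apart. There, too, CRISPR replicate 3 was nearer to control replicate 1 (3.31%) than to CRISPR replicate 1 (3.79%) or CRISPR replicate 2 (4.14%). Over the member bins, libraries of the same group always differed beyond sampling noise, by a chi-square of 1.64 to 17.8 per degree of freedom.

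No member bin passed the exon usage test of edgeR. With all libraries and all bins, member bins were called only by a model chosen after seeing the data (below). They lay in *cirbp*, *pcbp3* and *hnrnpa1*. Fitted on 232985 bins, the edgeR test called 0 of the 726 member bins at an adjusted p under 0.05, as it did 0 of all bins (0.0%). At an unadjusted p under 0.05 it gave 15 member bins (2.07%), where all bins gave 1.12%. Of these, 6 (0.826%) were higher in CRISPR brains, against 0.583% of all bins, and 9 (1.24%) lower, against 0.537%. The 1.12% of all bins is below the rate that the threshold of 0.05 allows, so the edgeR test was conservative here. Its 0 calls therefore do not show that usage was equal. The 15 member bins became 5 without control replicate 2, 6 without CRISPR replicate 3 and 7 without control replicate 3. All bins gave 0.97%, 1.08% and 0.91% in these fits, so the members no longer stood clearly above all bins. There were 12 member bins without CRISPR replicate 1, 16 without CRISPR replicate 2 and 21 without control replicate 1. All bins gave 1.08%, 1.24% and 1.48% there. The excess of the members thus depended on which library was left out. Sites of differential exon usage at an adjusted p under 0.05 were more numerous in the study's own DEXSeq run than in the refit here. The DEXSeq model fitted in DESeq2 also called 0 member bins, against 1 of 215002 bins (0.000465%). It had 27 members (3.79%) at an unadjusted p under 0.05, against 1.15% of all bins. The same model with a local dispersion trend, which was chosen after seeing the data, called 4 member bins (0.562%), against 26 of 215002 bins (0.0121%). It had 42 member bins (5.90%) at an unadjusted p under 0.05, against 1.98% of all bins. That model gave an adjusted p to 465 member bins and to 23257 bins in all, those of higher counts, and of these it called 0.860% and 0.112%. Without control replicate 1 it called 27 member bins and 600 in all, and without control replicate 2 or control replicate 3 it called 2 member bins, *pcbp3* bin 5 and *cirbp* bin 8. Testing the share itself in edgeR, with the gene's bin count as an offset (also chosen after seeing the data), called 0 member bins and 0.0% of all bins. It gave 68 members (9.37%) at an unadjusted p under 0.05, against 3.82% of all bins, and without control replicate 1 it called 6 member bins and 121 in all.

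Without any model, the shares of the 3 CRISPR libraries lay wholly outside those of the 3 control libraries in 81 of the 631 member bins of at least 10 counts (12.8%), against 9.49% of all such bins. In 35 of them all CRISPR libraries were above all controls (5.55%, against 4.31% of all such bins), and in 46 below (7.29%, against 5.18%). Leaving out *cirbp*, the number was 73 of 620 (11.8%). Among bins with a mean of at least 1000 counts, 35 of 238 members (14.7%) did not overlap, against 9.80% of all such bins. With fewer libraries more bins do not overlap, and the excess of the members depended on which library was left out. Without control replicate 1, 263 of the 631 member bins (41.7%) did not overlap, against 28.3% of all bins. Members and all bins were close without control replicate 2 (17.7% and 17.8%), control replicate 3 (17.1% and 16.8%), CRISPR replicate 3 (19.3% and 18.8%) and CRISPR replicate 2 (19.7% and 18.9%), and without CRISPR replicate 1 the shares were 20.3% and 17.9%. The members' differences were small, with a median absolute usage change of 0.07 on the log2 scale, against 0.10 over all bins, and medians near 0 in both (-0.01 each). Of the 53 genes, 16 had no bin that kept the groups apart, 14 had 1, 13 had 2, 5 had 3, and 5 had 4 or more, namely *cirbp*, *hnrnph1*, *hnrnpr*, *hnrnpul2* and *tra2b*. The same count was not made over all gene models, so these numbers alone do not set a gene apart.

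**Figure D1:**
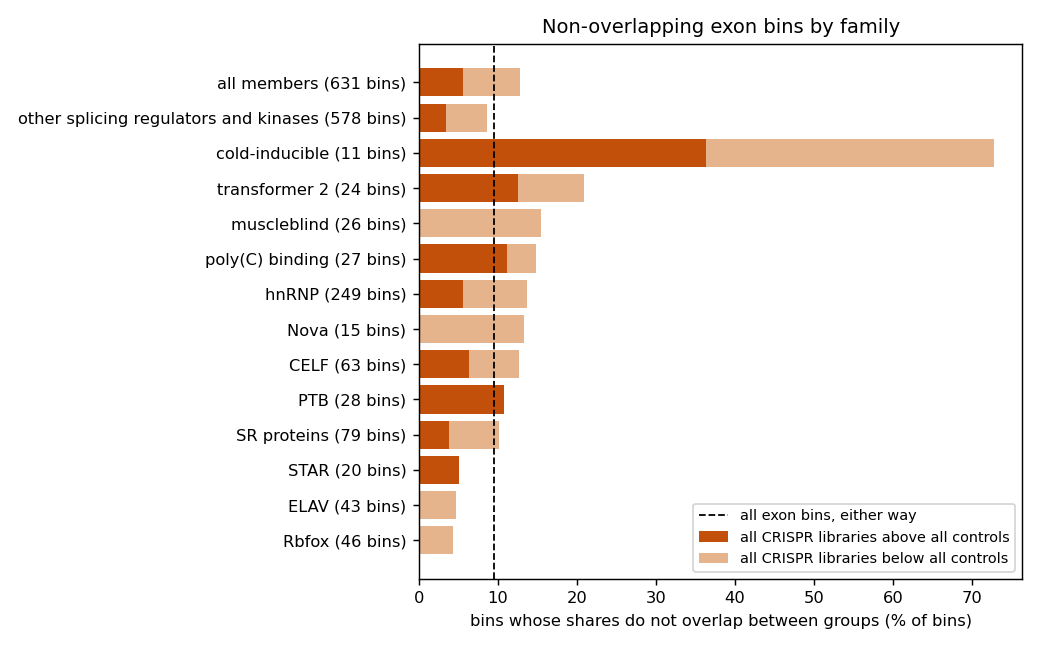
Percent of exon bins (x axis, bins with a mean of at least 10 counts) whose shares did not overlap between the groups, for each family of splicing regulators, split into bins with all CRISPR libraries above and all below the controls. The dashed line is the 9.49% of all exon bins, and *cirbp*, the only cold-inducible member with bins, stands at 72.7%.

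The transcript of *cirbp*, a cold-inducible RNA-binding protein, had the most bins with separated shares, while its gene-level counts overlapped between the groups. Its gene-wise exon usage test in edgeR (Simes) did not pass (unadjusted p = 0.0994, adjusted p = 1), and calls within it came from the local-trend model that was chosen after seeing the data. Of its 11 bins, 8 did not overlap between the groups, and they fell into a pair of neighboring blocks: bins 1 to 4 took less of the transcript and bins 5, 7, 8 and 9 took more. Bins are numbered along the genome and not from the 5′ end, so bin 1 can be either end of the gene, and a read counts in each bin it touches, so neighboring bins are not independent. The shares of a gene also sum to a fixed total, so lower shares in some bins force higher shares in the rest. The lower and the higher block are therefore not separate results. Together, bins 1 to 4 held 19.8%, 20.2% and 15.9% of *cirbp* bin counts in CRISPR replicates 1, 2 and 3, against 23.01%, 24.7% and 24.3% in control replicates 1, 2 and 3. The mean difference of this block, which was put together after its values were seen, was -5.40 percentage points, and it is given without a test.

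Within the block, bin 3 differed the most between the groups. Its share was 7.04%, 7.41% and 5.48% in CRISPR replicates and 8.28%, 9.21% and 9.095% in control replicates (means 6.64% ± 1.03 and 8.86% ± 0.509, SD, n = 3 each). Every CRISPR library was below every control library, with CRISPR replicate 3 the lowest, and the usage log2 fold change was -0.43, the smallest unadjusted p of any member bin in edgeR (0.0133, adjusted p = 1). Bin 2 took 5.54%, 5.60% and 4.57% in CRISPR replicates and 6.53%, 6.99% and 6.83% in control replicates. Bin 2 was called lower in the DEXSeq model with a local trend (log2 fold change -0.40, adjusted p = 0.0202), but not in edgeR (adjusted p = 1). In the DEXSeq model with a local trend the call was lost without control replicate 2 (adjusted p = 0.591) or control replicate 3 (adjusted p = 0.663).

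Bin 8 was the steadiest *cirbp* bin within each group. It held 11.7%, 11.6% and 11.99% in CRISPR replicates against 10.7%, 10.6% and 10.7% in control replicates (means 11.8% ± 0.198 and 10.7% ± 0.0760, SD, n = 3 each). The difference of 1.08 percentage points was larger than the spread of either group. The DEXSeq model with a local trend called it higher (log2 fold change 0.16, adjusted p = 0.000385), also with each library left out (adjusted p from 3.96e-05 to 0.0150). In edgeR's exon usage test its unadjusted p was 0.419. The unadjusted p was 0.00229 in the default DEXSeq model and 0.000112 with the share offset, and neither passed the adjustment. The largest bin, bin 5, took 29.8%, 29.5% and 31.4% in CRISPR replicates and 29.3%, 28.5% and 28.6% in control replicates, a separation by a narrow margin.

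Over the whole gene, *cirbp* libraries of different groups lay 5.57% of counts apart on average (9 pairs) and libraries of the same group 2.61% (6 pairs), a ratio of 2.14. Of 915 gene models with at least 10000 counts, 5 had a higher ratio. At that minimum the median ratio was 1.007 over 29 members and 1.019 over all gene models, and at a minimum of 1000 counts it was 1.003 over 50 members and 0.979 over 6843 gene models. The gene-level count of *cirbp* was 7351, 7316 and 8238 cpm in CRISPR replicates, against 7426, 7374 and 7456 cpm in control replicates (log2 fold change 0.04 ± 0.08 standard error, edgeR adjusted p = 0.862), so the groups overlapped in level.

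**Figure D2:**
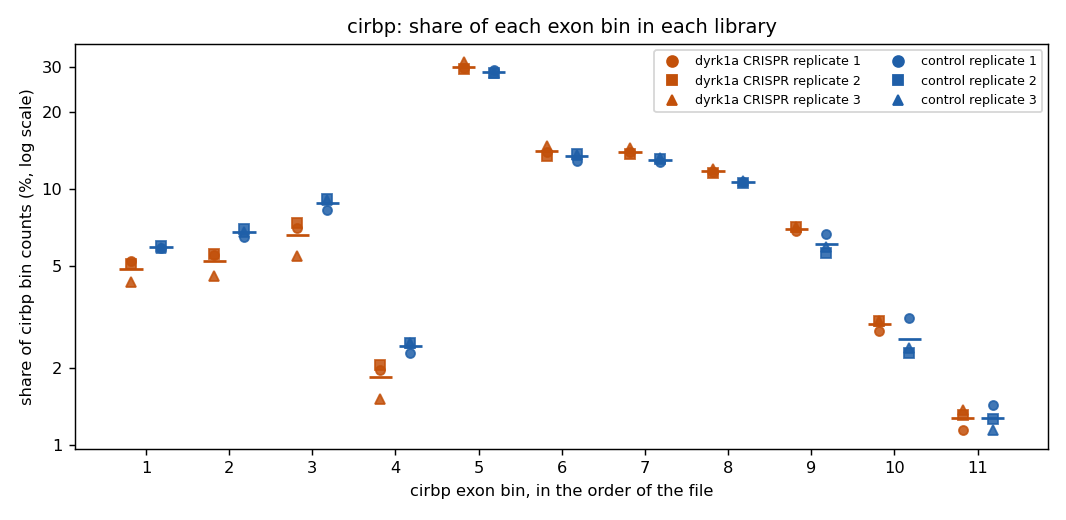
Share of *cirbp* bin counts (y axis, percent, log scale) for each of its 11 exon bins (x axis, file order) in each of the 3 *dyrk1a* CRISPR and 3 control libraries, with lines at the group means. All CRISPR points of bins 1 to 4 lie under the controls, with CRISPR replicate 3 the lowest, and those of bins 5, 7, 8 and 9 lie over them.

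Among poly(C)-binding proteins, which bind C-rich stretches of RNA, bin 5 of *pcbp3* took a larger share of the transcript in CRISPR brains. It held 2.90%, 2.92% and 3.07% in CRISPR replicates, against 2.43%, 2.27% and 2.10% in control replicates (means 2.96% ± 0.0950 and 2.27% ± 0.163, SD, n = 3 each). All CRISPR libraries were above all controls, and the 3 CRISPR values lay close together. The DEXSeq model with a local trend called bin 5 higher (log2 fold change 0.39, adjusted p = 5.78e-05), also without each library in turn (adjusted p from 1.89e-10 to 0.0127). In edgeR's exon usage test the unadjusted p was 0.0287 and the adjusted p was 1, and with the default trend the DEXSeq model gave an adjusted p of 0.742. Its neighbor bin 4, with only a mean of 35.2 counts, also lay above the controls, and 1 other bin lay below them. The remaining 14 of the 17 *pcbp3* bins overlapped, and of all bins 9.49% did not overlap. The control libraries lay 4.10% apart in *pcbp3*, more than the 2.95% between the groups. Its distance ratio was 1.13, and 242 of 915 gene models of at least 10000 counts had a higher ratio. The gene-level count was 2051, 1955 and 2006 cpm in CRISPR replicates, against 2124, 2055 and 2073 cpm in control replicates (log2 fold change -0.06 ± 0.07 standard error, edgeR adjusted p = 0.791).

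In *pcbp2*, bin 10 had 38, 35 and 37 counts in CRISPR replicates and 28, 16 and 12 counts in control replicates. These are 5.23%, 5.23% and 7.68% of the transcript in CRISPR brains against 3.21%, 2.54% and 4.49% in control brains, with no overlap, an unadjusted p of 0.0251 and an adjusted p of 1 in edgeR. *pcbp1* had a mean of only 77.3 bin counts per library, too few to compare its 20 bins.

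The hnRNP family, which coats nascent transcripts, gave 34 of its 249 bins of at least 10 counts (13.7%) as non-overlapping, against 9.49% of all bins. Of these, 14 were above, against 4.31% of all bins, and 20 below, against 5.18%. In edgeR's exon usage test 1 of the 270 hnRNP bins had an unadjusted p under 0.05, against 1.12% of all bins, and 0 passed the adjustment. *hnrnpa1*, an abundant repressor of exon inclusion, had the largest of these 34 differences. Its bin 10 took 4.72%, 5.78% and 5.74% in CRISPR replicates, against 4.09%, 3.82% and 3.98% in control replicates (means 5.41% ± 0.602 and 3.97% ± 0.134, SD, n = 3 each). CRISPR replicate 1 was the nearest to the controls, and the DEXSeq model with a local trend called the bin higher (log2 fold change 0.47, adjusted p = 0.0134). Its call was lost in 4 of the 6 fits that leave out a library (without CRISPR replicates 2 or 3 or control replicates 2 or 3, adjusted p from 0.177 to 0.447), and in edgeR's exon usage test its unadjusted p was 0.125.

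*hnrnpd*, an AU-rich element binding protein, had 1 bin among the smallest p in edgeR. Bin 5 took 3.47%, 3.23% and 2.50% in CRISPR replicates and 3.67%, 3.98% and 4.22% in control replicates, below without overlap (unadjusted p = 0.0401, adjusted p = 1 in edgeR). The last bins of this gene set control replicate 1 apart from its group. Bins 13 to 15 together held 25.4%, 26.6% and 26.5% in CRISPR replicates and 27.2%, 22.8% and 22.4% in control replicates, so control replicate 1 sat with the CRISPR libraries. In *hnrnpul2*, a relative of the scaffold attachment factor *hnrnpu*, 4 adjoining bins ran the same way. Bins 7 to 10 together took 25.5%, 25.5% and 24.1% in CRISPR replicates and 27.9%, 27.6% and 28.4% in control replicates, and each of the 4 was below without overlap. This sum, too, was formed after the values were seen, and the gene-wise test in edgeR gave an unadjusted p of 1. Its ratio of between-group to within-group distance was 1.33, where the 95th percentile over gene models of at least 1000 counts was 1.34. That of *hnrnpa2b1* was 1.35, and 68 of 915 gene models of at least 10000 counts had a higher ratio. The control libraries lay 5.35% apart in *hnrnpa2b1*, more than the 4.86% between the groups. Of the 16 *hnrnpa2b1* bins, 2 (bins 8 and 9) lay below the controls, against 5.18% of all bins.

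**Figure D3:**
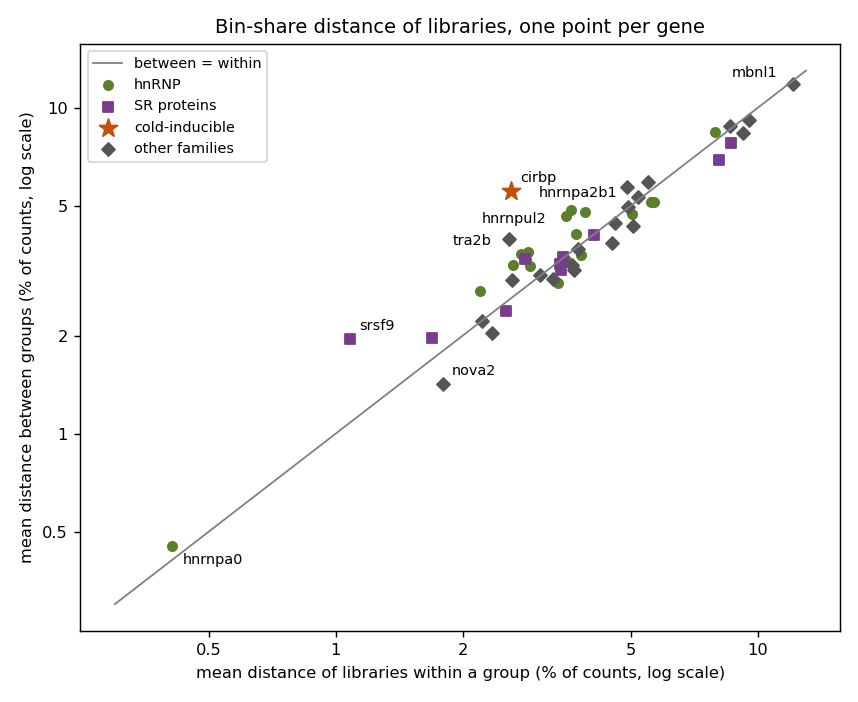
Mean distance of bin shares between libraries of different groups (y axis) against that within groups (x axis), both in percent of counts on log scales, with 1 point for each of the 50 members of at least 1000 bin counts. Most genes lie near the line of equality, and *cirbp* (5.57% and 2.61%) and *srsf9* (1.95% and 1.08%) lie farthest above it.

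Of the SR proteins, 8 of 79 bins of at least 10 counts (10.1%) did not overlap, near the 9.49% of all bins, with 3 above and 5 below. Bin 8 of *srsf7* was the largest difference of the family. It took 16.3%, 16.4% and 13.7% in CRISPR replicates and 17.05%, 18.7% and 18.5% in control replicates (means 15.5% ± 1.54 and 18.1% ± 0.892, SD, n = 3 each). The groups did not overlap, CRISPR replicate 3 was the farthest from the controls, and the unadjusted p in edgeR was 0.187. Over 6843 gene models of at least 1000 counts the distance ratio had a median of 0.979 and a 95th percentile of 1.34. *srsf9* followed *cirbp* in this ratio (1.80), with 2 of its 4 bins apart, against 9.49% of all bins. Its bin 1 took 25.7%, 24.9% and 24.9% in CRISPR replicates and 26.1%, 27.5% and 26.5% in control replicates (unadjusted p = 0.662 in edgeR). For *srsf9* the gene-wise test in edgeR (Simes) gave an unadjusted p of 0.934. Its shares sum to a fixed total, so the bins that lay apart are not separate results. In *srsf11*, bin 3 was the family's smallest p among bins over 1% of the transcript, at 1.94%, 1.69% and 2.03% in CRISPR replicates against 2.25%, 1.31% and 1.12% in control replicates, where control replicate 1 was the highest of all (log2 fold change 0.29, unadjusted p = 0.147 in edgeR). Without control replicate 1 its log2 fold change was 0.64 (unadjusted p = 0.00322 and adjusted p = 1 in edgeR, adjusted p = 0.00414 in the DEXSeq model with a local trend). Without control replicate 2 it was 0.17, and without control replicate 3 it was 0.11. Bin 7 of *srsf1* rested on very few counts, 1, 1 and 0 in CRISPR replicates and 7, 5 and 3 in control replicates (unadjusted p = 0.0275, adjusted p = 1). *srsf5*, among the members of most bin counts, had 1 of 9 bins apart, bin 1, at 0.127% ± 0.00709 in CRISPR brains, against 0.0959% ± 0.00988 in control brains (SD, n = 3 each).

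*tra2b*, a transformer 2 protein that binds exonic enhancers, had 5 of 11 bins without overlap, against 9.49% of all bins. Its distance ratio was 1.54, where the 95th percentile over gene models of at least 1000 counts was 1.34. Bins 9 to 11 lay above the controls and together took 30.9%, 29.7% and 30.8% in CRISPR replicates and 28.3%, 27.2% and 26.9% in control replicates. Bins 6 and 7 lay below, at 34.3%, 35.2% and 35.03% together in CRISPR replicates and 36.3%, 37.9% and 38.6% in control replicates. The most distinct was bin 11, with 7.84%, 7.96% and 8.16% in CRISPR replicates and 7.11%, 6.36% and 6.38% in control replicates (unadjusted p = 0.290 in edgeR). The sums were formed after the values were seen and were not tested. Because the shares of a gene sum to a fixed total, the higher and the lower bins are not separate results. *tra2a*, the other member of the family, had 0 such bins of at least 10 counts.

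**Figure D4:**
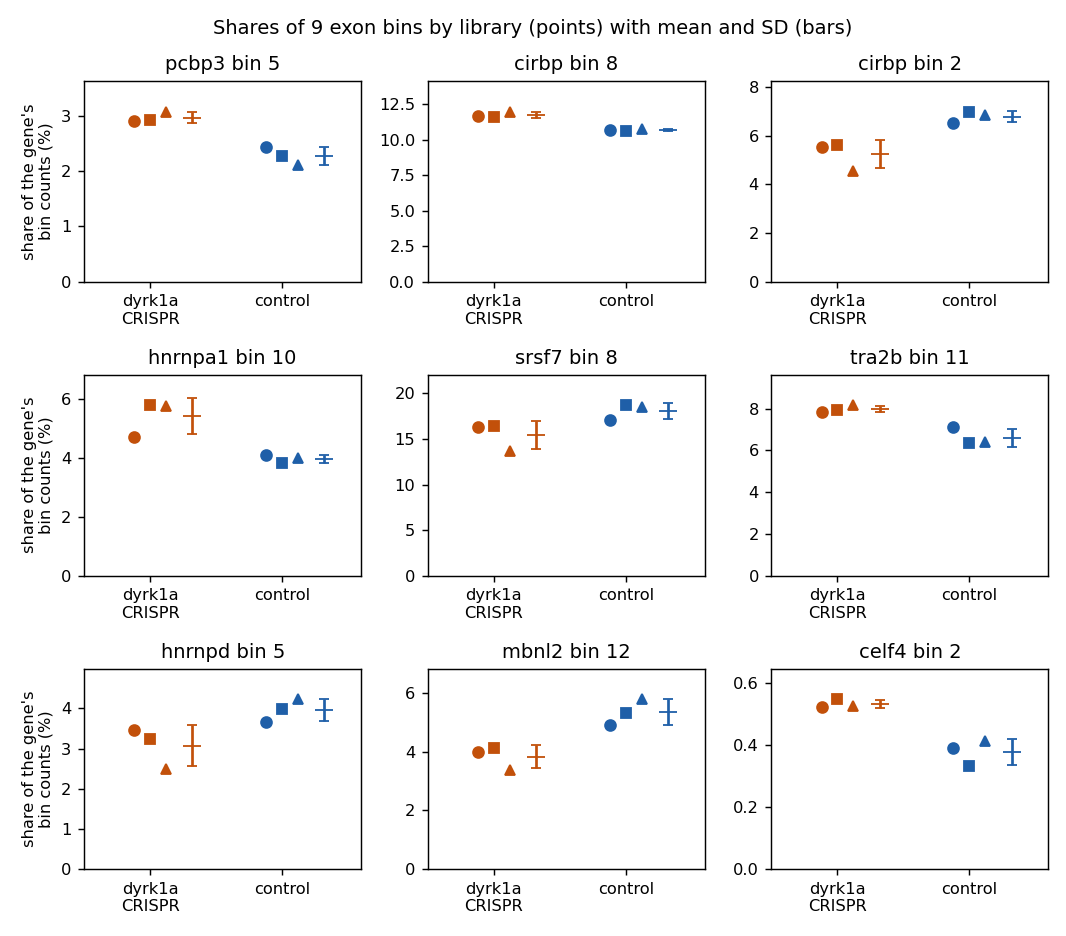
Share of the gene's bin counts (y axis, percent, from 0) in the 3 *dyrk1a* CRISPR libraries (left) and the 3 control libraries (right) for 9 exon bins, with the mean and SD beside the points. In each panel the groups do not overlap. CRISPR replicate 3 (triangle) is the farthest from the controls in *cirbp* bin 2, *srsf7* bin 8 and *hnrnpd* bin 5. The share of CRISPR replicate 3 is also the farthest in *pcbp3* bin 5, *cirbp* bin 8, *tra2b* bin 11 and *mbnl2* bin 12.

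The regulators that are enriched in neurons or muscle showed scattered bins. CELF proteins, which bind GU-rich RNA, gave 8 of 63 bins without overlap (12.7%, against 9.49% of all bins). Bin 2 of *celf4* held a small but steady share, 0.522%, 0.548% and 0.528% in CRISPR replicates and 0.390%, 0.333% and 0.414% in control replicates (unadjusted p = 0.0252 in edgeR, adjusted p = 0.126 in the DEXSeq model with a local trend). For *celf5*, bin 1 had few reads, with 33, 27 and 43 counts in CRISPR replicates and 28, 21 and 7 counts in control replicates. Its shares, 0.250%, 0.209% and 0.471% in CRISPR replicates and 0.179%, 0.155% and 0.131% in control replicates, did not overlap, while bin 2 overlapped, with 0.759%, 0.897% and 1.56% in CRISPR replicates and 0.878%, 0.553% and 0.634% in control replicates. Both *celf5* bins were largest in CRISPR replicate 3. *celf1* bin 22 took 4.53%, 5.01% and 3.82% in CRISPR replicates and 5.61%, 5.25% and 7.19% in control replicates, below without overlap (unadjusted p = 0.116).

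Muscleblind proteins, which bind YGCY motifs and act in muscle and brain development, gave 4 of 26 bins without overlap (15.4%), all 4 below, against 9.49% of all bins in either direction and 5.18% below. *mbnl2* bin 12 took 3.98%, 4.13% and 3.38% in CRISPR replicates and 4.90%, 5.32% and 5.78% in control replicates (means 3.83% ± 0.396 and 5.33% ± 0.436, SD, n = 3 each), with an unadjusted p of 0.0265 and an adjusted p of 1 in edgeR. *mbnl1* bin 11 lay below too, with 3.00%, 3.53% and 1.63% in CRISPR replicates and 4.27%, 4.18% and 3.80% in control replicates (unadjusted p = 0.184 in edgeR). The CRISPR libraries lay 15.5% apart in *mbnl1*, more than the 11.8% between the groups. As the shares of a gene sum to a fixed total, its lower and higher bins are not separate results. At the other end of *mbnl2*, bin 1 overlapped, with 6.10%, 4.39% and 8.02% in CRISPR replicates and 4.51%, 4.51% and 3.95% in control replicates. Skeletal muscle markers were lower in each CRISPR library than in any control, with 8 of 10 found and a summed 20.2 to 33.3 cpm in CRISPR brains against 65.02 to 217 cpm in control brains. Their part in the *mbnl1* and *mbnl2* shares was not tested.

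The Nova and PTB families gave 2 of 15 (13.3%) and 3 of 28 bins (10.7%) without overlap, against 9.49% of all bins. The ELAV, Rbfox and STAR families gave 2 of 43 (4.65%), 2 of 46 (4.35%) and 1 of 20 bins (5%). With so few such bins, these shares do not set any of these families apart from all bins. *nova1*, a neuronal regulator, took 19.3%, 15.9% and 18.9% at bin 2 in CRISPR replicates and 20.04%, 19.6% and 19.7% in control replicates, where CRISPR replicate 2 was the lowest. For *khdrbs2*, bin 4 took 16.4%, 16.3% and 17.4% in CRISPR replicates and 16.3%, 13.7% and 13.2% in control replicates, with control replicate 1 only just under the CRISPR libraries. *ptbp1*, the polypyrimidine tract binding protein of progenitors, was above the controls at bins 10, 11 and 12, and bin 12 held 2.26%, 2.50% and 2.82% in CRISPR replicates and 1.53%, 2.09% and 1.78% in control replicates (unadjusted p = 0.144). In edgeR's exon usage test 0 of the 15 Nova, 54 Rbfox and 23 STAR bins had an unadjusted p under 0.05, against 1.12% of all bins. A count of 0 among so few bins does not set these families apart from all bins.

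Several bins with the smallest p held few reads or did not separate the groups. *ptbp1* bin 16 had 3, 1 and 1 counts in CRISPR replicates and 6, 6 and 4 in control replicates. *elavl2* bins 4 and 5, which held the same reads, had 2, 2 and 0 counts in CRISPR replicates and 5, 9 and 1 in control replicates. Counts this low give shares of low precision. Among bins chosen as the smallest p of their family, the groups also overlapped in *rbfox2* bin 2 (31, 40 and 36 counts in CRISPR replicates, 98, 59 and 14 in control replicates), *khdrbs3* bin 10 (6.75% to 9.27% in CRISPR replicates, 6.27% to 6.90% in control replicates) and *elavl2* bin 15 (4.83% to 8.03% in CRISPR replicates, 6.95% to 8.51% in control replicates). For the shares of every named bin whose groups did not overlap, the two-sided exact permutation test gave p = 0.1, the smallest that 3 against 3 libraries allow. Any bin without overlap gets this value, so the test adds nothing to the separation.

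At the level of whole genes, hnRNP transcripts leaned higher in CRISPR brains. None of the 57 members passed an adjusted p of 0.05 in edgeR, where 0.00663% of all 15076 genes tested did, and at an unadjusted p under 0.05 there were 13 members higher, against 6.79% of all genes, and 4 lower, against 6.16% of all genes. Of the 18 hnRNP genes, an unadjusted p under 0.05 was reached by 9 with a higher and 0 with a lower level, with a median log2 fold change of 0.22, against 0.01 over all genes. DESeq2 called 3 members higher, all of them hnRNP genes, and none lower, against 1.14% of all genes higher.

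*hnrnpa2b1*, which binds exons and transported RNAs, was at 158, 163 and 248 cpm in CRISPR replicates, against 119, 98.1 and 85.7 cpm in control replicates (log2 fold change 0.90 ± 0.18 standard error, adjusted p = 0.0988 in edgeR and 0.000685 in DESeq2). For *hnrnpa3* the values were 25.3, 20.9 and 37.1 cpm in CRISPR replicates, against 14.8, 15.6 and 15.98 cpm in control replicates (log2 fold change 0.84 ± 0.21, adjusted p = 0.138 in edgeR and 0.0108 in DESeq2). *hnrnph1*, a binder of G-rich RNA, was at 202, 224 and 268 cpm in CRISPR replicates, against 158, 160 and 172 cpm in control replicates (log2 fold change 0.50 ± 0.11, adjusted p = 0.118 in edgeR and 0.0180 in DESeq2). In all 3 genes every CRISPR library was above every control, and CRISPR replicate 3 was the highest. The members of most bin counts were *cirbp*, *pcbp3*, *srsf5*, *hnrnpk* and *hnrnpab*, and of these *hnrnpab* was at 951, 952 and 1314 cpm in CRISPR replicates against 849, 717 and 800.1 cpm in control replicates (edgeR adjusted p = 0.216).

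The genes of smallest p in the other direction were *rbfox3*, *srsf5* and *srsf7*. *rbfox3*, a marker of mature neurons, was at 202, 224 and 196 cpm in CRISPR replicates, against 251, 264 and 247 cpm in control replicates (log2 fold change -0.29 ± 0.09, edgeR adjusted p = 0.233). *srsf5* had a log2 fold change of -0.28 (adjusted p = 0.276) and *srsf7* of -0.22 (adjusted p = 0.299), each below the controls in all 3 libraries. Several marker lists for cell types also differed between the groups in their summed level. A sum weighs abundant genes most, so it need not hold for each gene of a list. The 7 neural progenitor markers summed to 3301, 3051 and 3653 cpm in CRISPR replicates, against 2835, 2099 and 2331 cpm in control replicates, all 7 with a positive log2 fold change. The 5 cycling cell markers found summed to 89.1, 107 and 109 cpm in CRISPR replicates, against 73.6, 52.3 and 63.0 cpm in control replicates, all 5 with a positive log2 fold change. The 8 neuron markers, among them the members *elavl3* and *elavl4*, summed to 8145, 7916 and 8025 cpm in CRISPR replicates, against 9248, 8635 and 9165 cpm in control replicates. The neuron list was mixed by gene, with 2 of 8 log2 fold changes positive and a median of -0.07. Oligodendrocyte markers (6) summed to 365 to 386 cpm in CRISPR brains against 507 to 590 cpm in control brains, with 2 of 6 log2 fold changes positive and a median of -0.10. Microglia and immune cell markers (3 of 6 found) summed to 24.9 to 31.3 cpm in CRISPR brains against 15.3 to 20.9 cpm in control brains, all 3 positive. Meninges and mesenchyme markers (5) summed to 79.5 to 101.5 cpm in CRISPR brains against 48.8 to 61.7 cpm in control brains, with 3 of 5 positive. The part of these lists in the hnRNP levels, the *rbfox3* level and the *cirbp* shares was not tested.

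**Figure D5:**
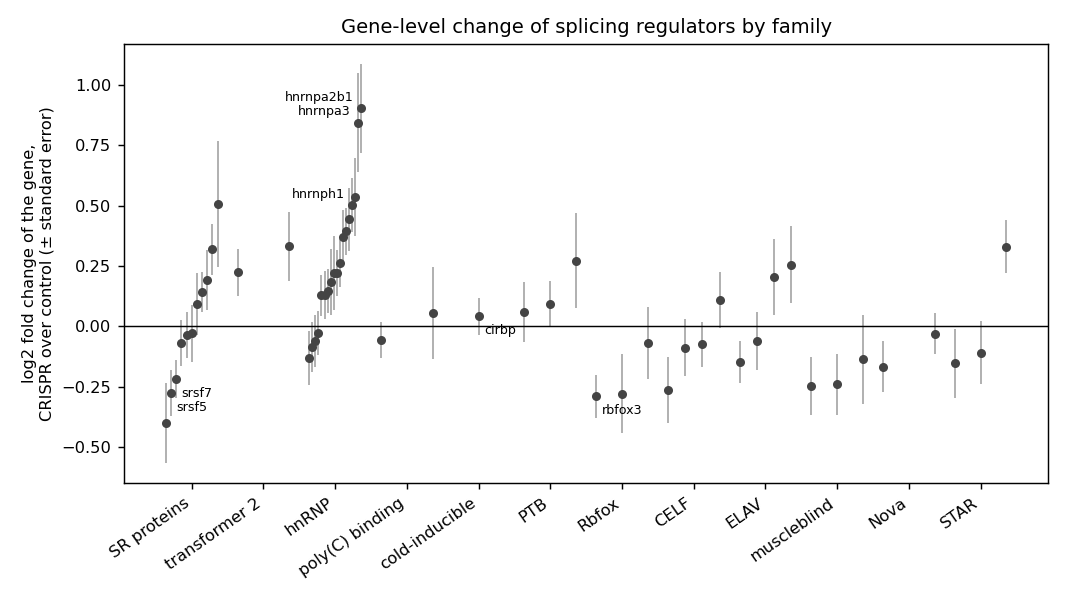
Log2 fold change of each member gene (y axis, *dyrk1a* CRISPR over control, points with standard errors from edgeR) by family (x axis), with *pcbp1* (log2 fold change -1.38, standard error 0.66) left out for scale. Of the hnRNP genes 14 of 18 lie above 0, led by *hnrnpa2b1* at 0.90, while *cirbp* lies at 0.04.

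A wider list of other splicing regulators and their kinases had 40 genes with 626 bins. The list held SR protein kinases, CLK kinases, *dyrk1a* and *dyrk1a.2*. Of its 578 bins of at least 10 counts, 50 (8.65%) did not overlap, against 81 of 631 (12.8%) in the members and 9.49% of all bins. In edgeR's exon usage test 2 of its 626 bins were higher at an unadjusted p under 0.05, against 0.583% of all bins. In the other direction 2 bins were lower, against 0.537% of all bins, and 0 passed the adjustment. The nuclear speckle scaffold gene *son* had the largest share difference of these, at bin 9, with 14.4%, 12.9% and 18.2% in CRISPR replicates and 11.1%, 8.83% and 9.85% in control replicates (unadjusted p = 0.0212, adjusted p = 1). It is named after its values were seen.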

How the data were processed

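RNA was measured in 3 *dyrk1a* CRISPR and 3 control pools of *Xenopus tropicalis* brains. The authors aligned polyA-selected, unstranded libraries with STAR 2.7.3, and made exon-bin counts with DEXSeq at default settings, for which no version is given in the sources used here. They deposited raw counts per gene, raw counts per exon bin, and log2 values per gene (log2 of cpm plus 1), of which only the gene symbols were used here. Special counter lines, which name no gene, took 5.02% to 5.62% of exon-level counts for reads in no exon and 0.463% to 0.526% for ambiguous reads, and were left out. Bin counts per library ranged from 20015023 to 69480534. At this depth some bins still held few counts, and their shares have low precision.

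The diffSpliceDGE test of edgeR 4.0.16 was used for exon usage (TMM factors, quasi-likelihood fit) on all bins of gene models with at least 5 bin counts and 2 bins, 232985 bins of 20178 models, with Benjamini-Hochberg adjustment over all of them and no covariate. DEXSeq was not run here, and its model was fitted with DESeq2 1.42.0, so these calls do not stand for those of the study. At the gene level, edgeR's quasi-likelihood test was run on genes that exceeded 1 cpm in 3 or more libraries. For this filter alone, cpm were scaled to the library total without the TMM factor. Scripts were tested on simulated data. The alternatives were other normalizations, models and filters, the replicate number as a block, and leaving out each library. The share offset and the local dispersion trend were added after seeing the data.

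Named bins were those past an adjusted p of 0.05 in edgeR or the DEXSeq model, the 15 of smallest p in edgeR, the 15 of largest share difference without overlap at a mean of at least 10 counts, and in each family the bin of smallest p at a mean share of at least 1%. Bins past an adjusted p of 0.05 in the DEXSeq model with a local trend were added to them after seeing the data. *cirbp* bin 8 was named by that addition alone. Named genes held such a bin, were among the 5 of most bin counts or the 5 of largest distance ratio at a mean of at least 1000 bin counts, or had 1 of the 3 smallest gene-level p per direction. The members and lists were chosen with earlier results of these data known. No sequence is printed, since none was at hand for these bins. Genes that overlap or resemble another gene may share reads, and the libraries do not mark strand.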

Additional observations from a re-analysis of the deposited data

How the results depend on the processing

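The count of 0 member bins past an adjusted p of 0.05 in edgeR held with RLE or upper-quartile factors, glmFit, limma-voom, the default DEXSeq model, other filters, without merged models, and without each library, and it became 4 in the DEXSeq model with a local trend. At an unadjusted p under 0.05 the 15 member bins became 27 in the DEXSeq model, 42 with its local trend and 68 with the share offset, and between 5 and 21 without a library (5 without control replicate 2, 6 without CRISPR replicate 3, 7 without control replicate 3). Over all bins the share was 1.12% in the main fit and 1.15%, 1.98% and 3.82% in the other models. Without a library it was 0.91% to 1.48% of all bins. For the replicate block the same number marks no shared batch, and correlations of same-numbered deviations were -0.25, 0.24 and -0.16, so numbers do not pair the libraries. The replicate block gave 12 member bins at an unadjusted p under 0.05, against 1.04% of all bins, and 0 adjusted. At the gene level it gave 12 members higher, 3 lower and 0 adjusted.

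Without a library, the local trend called between 2 and 27 member bins (27 without control replicate 1) and gave between 31 and 130 at an unadjusted p under 0.05, and with bins of at least 10 counts it called 7. Over all bins it called between 14 and 600 without a library, with 1.73% to 4.29% at an unadjusted p under 0.05. With bins of at least 10 counts it called 31 in all. The share offset called between 0 and 6 member bins without a library (6 without control replicate 1), with between 40 and 168 at an unadjusted p under 0.05. Over all bins it called between 0 and 121, with 2.91% to 7.53% at an unadjusted p under 0.05. Non-overlapping member bins numbered between 108 and 263 without a library (17.1% to 41.7%), against 16.8% to 28.3% of all bins. At the gene level, DESeq2 called 3 members and the fit without a filter called 1 (*hnrnph1*), against 0 in edgeR. Without a library 8 to 14 members were higher (8 without control replicate 2) and 1 to 6 lower (1 without control replicate 3) at an unadjusted p under 0.05. The same gene-level counts without a library were not made over all genes. The causes were not tested. Of the values of named bins and genes under other settings, 9 changed sign, all at the gene level when a library was left out. Over the fits without a library these log2 fold changes ran from -0.017 to 0.070 for *cirbp*, -0.11 to 0.00094 for *hnrnpul2*, -0.077 to 0.0064 for *nova1*, -0.079 to 0.17 for *pcbp2*, -0.026 to 0.12 for *ptbp1*, -0.19 to 0.033 for *rbfox2* and -0.29 to 0.25 for *dyrk1a*.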

Other observations

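The 4 regulators that overlap a neighbor have bins only in merged models, where a bin cannot be given to either gene. The model of *khdrbs1*, a STAR family RNA-binding protein, and *tmem234* had 22 bins, of which 20 had a mean of at least 10 counts and 5 did not overlap between CRISPR and control libraries. Of the models that hold *ptbp3*, *srsf10* and *mbnl3*, 1 of 15, 0 of 10 and 0 of 8 such bins did not overlap. Over all bins of at least 10 counts, 9.49% did not overlap. With so few bins per model, these counts are not read further. At the gene level *khdrbs1* was at 359, 354 and 460 cpm in CRISPR replicates, against 312, 303 and 318 cpm in control replicates (log2 fold change 0.33 ± 0.11 standard error, edgeR adjusted p = 0.268).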
